A study of Mus musculus with 6 samples.

Results

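Proliferating cells of the mouse spinal cord were taken as the cells with a deposited value above 0 for at least 2 of 8 selection genes, Top2a, Mki67, Birc5, Cdk1, Ube2c, Pclaf, Cenpf and Tpx2. They numbered 296 of 13614 cells, or 2.17% (exact binomial 95% interval 1.94 to 2.43%, which covers counting error only). The 10423 comparison cells had none of the 8 genes and a sum of at least 8 over C1qa, Ctss and Tyrobp, 3 genes of microglia and macrophages. A further 929 cells had exactly 1 selection gene, and 1966 cells had neither a selection gene nor that sum.

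The cells came from perfused spinal cords, as the labels and methods have it, although the results of the study speak of the CNS as a whole. They were profiled with a droplet-based 3′ scRNA-seq kit in 6 libraries. The libraries were 2 from Nd6 mice with MOG EAE, 2 from WT mice with MOG EAE, 1 from Nd6 control mice and 1 from WT control mice. The Nd6 mutation lies in the mitochondrial genome, in the gene of a respiratory complex I subunit, and is present in every cell and not in microglia alone. EAE is a model of central nervous system inflammation set off by immunization with a myelin peptide. Perfusion and the enzyme digestion of the tissue contained actinomycin D and triptolide, which stop transcription, and the digestion also contained anisomycin. The deposited table does not say which cell belongs to which library, so no comparison of Nd6 with WT mice, or of EAE with control mice, could be made for proliferating cells. The table counts as 1 sample, no test was run across cells, and every value below is a description. Because the cells were chosen by 8 cell cycle genes, the level of related cell cycle genes in them is part of the choice and not separate evidence.

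A cell that divides copies its DNA in S phase, packs it with newly made histones, condenses it and pulls the copies apart on a spindle of microtubules in mitosis. Genes for these steps are switched on in waves: those of replication before and during S phase, those of the spindle, the kinetochore (the protein plate where chromosomes meet the spindle) and cyclin B mostly in G2 and mitosis. Microglia, the resident macrophages of the spinal cord, divide slowly in healthy tissue and more often during inflammation, and monocytes that enter from the blood can divide as well.

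The names of the cells end in 1 of 6 numbers, and the cells that share a number are called sets A to F here, from the largest to the smallest set. Proliferating cells were spread very unevenly over them. Set B held 253 proliferating cells of its 3995 cells (6.33%, interval 5.597 to 7.13%), which is 85.5% of all proliferating cells, while it held 29.3% of all cells and 25.1% of the comparison cells. The other sets together held 43 of 9619 cells (0.447%, interval 0.324 to 0.602%). Set A had 16 of 4633 cells (0.345%), set C 7 of 1664 (0.421%), set D 6 of 1309 (0.458%), set E 6 of 1204 (0.498%) and set F 8 of 809 (0.989%, interval 0.428 to 1.94%). The interval of set B overlapped with none of the other 5, and those 5 overlapped among themselves. Cells with exactly 1 selection gene leaned the same way, with 69.6% of them in set B. The genotype or state of set B is not known from the table, and a value that differs between proliferating and comparison cells over all sets cannot be told apart from a difference between set B and the rest unless it is also given within set B.

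**Figure D1:**
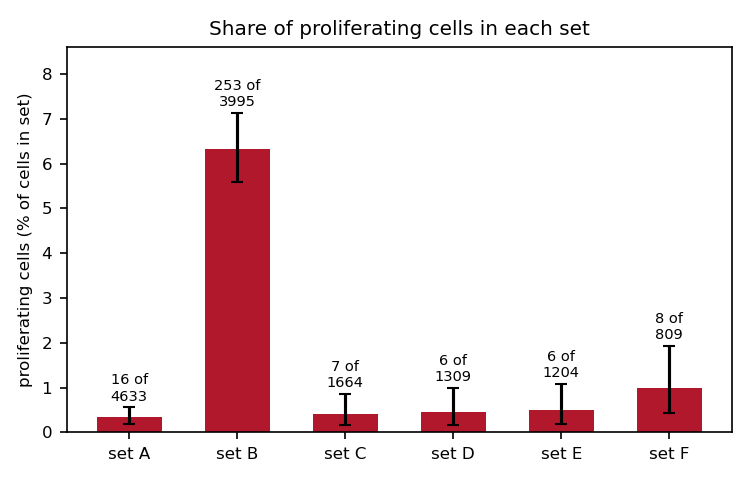
Share of proliferating cells in each of the 6 sets of cells (x axis), as a percentage of the cells of the set (y axis); bars are the share, error bars the exact binomial 95% interval, and the numbers above give proliferating cells of all cells. Set B stands at 6.33% and the other sets between 0.345% and 0.989%.

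Set B differed in more than its proliferating cells. The mitochondrially encoded mt-Nd3 was above 0 in 0.395% of proliferating cells and 0.421% of comparison cells in set B, against 6.98% and 19.1% outside it. The sets also differed in Apoe, with means in comparison cells from 1.15 in set E to 99.9 in set A. Of the barcodes, 18 occurred in more than 1 set, and 0 proliferating cells carried such a barcode.

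Among the selection genes, Top2a, the topoisomerase that untangles replicated DNA, was above 0 in 190 proliferating cells (64.2%) and reached a value of 12 in a single cell. Ube2c, which hands ubiquitin to the anaphase-promoting complex, was above 0 in 47.3% and Birc5, the survivin subunit of the chromosomal passenger complex, in 42.9%. These 3 genes were the ones found most often. Pclaf, a partner of the sliding clamp of replication, was above 0 in 38.9%, Mki67, which coats mitotic chromosomes, in 34.1%, and Cdk1, the kinase that starts mitosis, in 32.8%. Cenpf, a kinetochore protein, stood at 28.7% and Tpx2, a spindle assembly factor, at 19.9%. The most frequent pair was Top2a with Ube2c, in 88 cells, and the least frequent was Cdk1 with Tpx2, in 19 cells. Within set B and outside it the genes came in a similar order: Top2a was above 0 in 64.4% of the proliferating cells of set B and 62.8% of those outside, Birc5 in 41.5% and 51.2%, and Mki67 in 35.6% and 25.6%.

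Most proliferating cells were close to the limit of the choice. Exactly 2 selection genes were above 0 in 130 cells, 3 in 75, 4 in 47, 5 in 28, 6 in 11, 7 in 5 and all 8 in 0 cells. Cells with at least 3 selection genes, a stricter choice, numbered 166. The share in set B was 88.5% of the cells with exactly 2 and 83.1% of the cells with at least 3, so the uneven spread over sets was present at both limits.

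The cells just inside and just outside the limit were compared with 54 genes of mitosis and 57 genes of replication and nucleotide supply that the choice did not use. Cells with exactly 2 selection genes had on average 2.23 of the mitotic and 2.39 of the replication genes above 0, cells with exactly 1 had 1.04 and 1.34, and comparison cells had 0.595 and 0.915. With more selection genes the mitotic genes went up and the replication genes levelled off. Most selection genes work in mitosis themselves, so the choice favours such a rise and nothing is read from it. Cells with 5 or more selection genes had 8.68 mitotic and 3.68 replication genes above 0, and those with exactly 3 had 5.29 and 3.80. Over all proliferating cells the means were 4.69 mitotic and 3.18 replication genes. The number of genes found per cell was higher in cells with 3 or more selection genes, with a median of 790.5 in cells with 5 or more and 703 in cells with exactly 3, but at the limit it was 588 in cells with exactly 2 and 605 in cells with exactly 1, against 551 in comparison cells. Its part in the number of mitotic and replication genes was not tested.

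**Figure D2:**
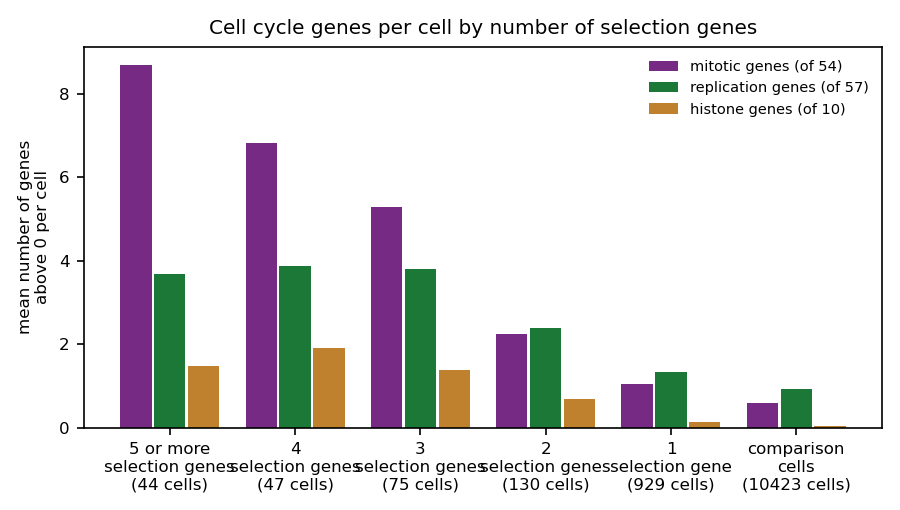
Mean number of mitotic (of 54), replication (of 57) and histone (of 10) genes above 0 per cell (y axis) in cells grouped by the number of selection genes above 0 and in comparison cells (x axis, with cell numbers). Mitotic genes stand at 8.68 in cells with 5 or more selection genes and at 0.595 in comparison cells, and replication genes at 3.68 and 0.915.

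Genes of replication and of mitosis were often found in the same cells. At least 2 genes of each kind were above 0 in 156 proliferating cells (52.7%), at least 2 mitotic genes but fewer than 2 replication genes in 65 (21.96%), the reverse in 32 (10.8%), and neither in 43 (14.5%). In comparison cells the share with at least 2 of each kind was 3.66%, with mitotic genes alone 8.59%, with replication genes alone 19.4% and with neither 68.3%. At least 2 replication genes were thus not rare in cells with no selection gene. Whether both kinds met in proliferating cells more often than their separate shares would give was not tested. At least 1 of 10 histone genes of the Hist clusters, which are transcribed mainly in S phase, was above 0 in 53.0% of proliferating cells and 3.72% of comparison cells. Proliferating cells with a histone gene had 4.24 replication and 5.79 mitotic genes above 0, and those without had 1.98 and 3.45. The histone genes thus went with more genes of both kinds, and median gene numbers in these cells were 692 and 627. No phase was assigned to single cells.

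A pair of short elements is known from promoters of cell cycle genes in mammals: the CCAAT box, read by the factor NF-Y, and the CHR element TTTGAA, through which the DREAM complex holds late cell cycle genes off in resting cells. Promoters from RefSeq (build GRCm38.p6) were searched for CCAAT and TTTGAA on both strands over the 250 bases before each start; CCAAT and its reverse ATTGG can overlap, and each was then counted. Of the 8 selection genes 7 were in the promoter table, and 6 of their 7 promoters held at least 2 CCAAT boxes while 4 held a CHR element. Among all RefSeq promoters searched, 10.1% held at least 2 CCAAT boxes and 15.99% a CHR element. Among the promoters of genes measured here these shares were 11.9% and 11.5%. The last 120 bases before the start are shown for 4 selection genes and 2 of the 25 genes of highest ratio described below, and for Birc5, which held neither element in 250 bases; capitals mark the elements on either strand.
Top2a: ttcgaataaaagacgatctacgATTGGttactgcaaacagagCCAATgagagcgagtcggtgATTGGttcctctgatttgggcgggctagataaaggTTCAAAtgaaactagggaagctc
Cdk1: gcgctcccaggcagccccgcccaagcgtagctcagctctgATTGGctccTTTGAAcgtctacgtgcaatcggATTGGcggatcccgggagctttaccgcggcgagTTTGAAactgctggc
Ube2c: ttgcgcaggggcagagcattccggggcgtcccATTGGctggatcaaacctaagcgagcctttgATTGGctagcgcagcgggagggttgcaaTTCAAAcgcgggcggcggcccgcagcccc
Kif11: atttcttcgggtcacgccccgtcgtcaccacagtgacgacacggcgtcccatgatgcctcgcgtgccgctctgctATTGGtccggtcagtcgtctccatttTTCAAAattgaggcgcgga
Ccnb2: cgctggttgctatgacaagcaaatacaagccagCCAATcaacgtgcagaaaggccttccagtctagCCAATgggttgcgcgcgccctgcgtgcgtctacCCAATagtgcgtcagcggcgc
Pclaf: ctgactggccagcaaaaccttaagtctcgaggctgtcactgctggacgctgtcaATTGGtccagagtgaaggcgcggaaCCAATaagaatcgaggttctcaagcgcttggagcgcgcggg
Birc5: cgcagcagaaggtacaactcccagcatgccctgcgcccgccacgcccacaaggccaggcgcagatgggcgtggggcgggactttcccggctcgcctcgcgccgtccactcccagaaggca

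These stretches lie at chr11:99024190-99024309 (Top2a, minus strand), chr10:69352913-69353032 (Cdk1, minus strand), chr2:164769809-164769928 (Ube2c, plus strand), chr19:37376262-37376381 (Kif11, plus strand), chr9:70421555-70421674 (Ccnb2, minus strand), chr9:65890203-65890322 (Pclaf, plus strand) and chr11:117849117-117849236 (Birc5, plus strand). Top2a, Cdk1, Ube2c and Kif11 each held at least 1 CCAAT box upstream of a CHR element close to the start, while Ccnb2 held 3 CCAAT boxes and Pclaf held 2, with no CHR element in the 120 bases. Over all 200 promoters of 172 matched genes of the cell cycle lists (of 217), 60.5% held a CCAAT box, 24.5% a CHR element and 18% both. Of the promoters of the 46 matched mitotic genes 72.5% held a CCAAT box, and of those of the 46 matched replication genes 52.8%, while a CHR element was in 19.6% and 16.98% of these promoters. Of all 32851 RefSeq promoters searched, 33.8% held a CCAAT box, 15.99% a CHR element and 5.55% both. Of the 16323 promoters of genes measured here, 34.6% held a CCAAT box, 11.5% a CHR element and 4.21% both. A CHR element was as frequent in the 18 promoters of the 25 genes of highest ratio as in the 12 promoters of the 12 genes of lowest ratio (33.3% each). A CCAAT box was in 88.9% and 16.7% of these promoters. A match to these letters is a description and not a measured binding site.

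The cell type behind the label was checked with markers of other cells. Of the 296 proliferating cells, 250 (84.5%, interval 79.8 to 88.4%) reached the sum of 8 over C1qa, Ctss and Tyrobp, which is close to the 84.3% of all 13614 cells. Within set B the shares were 84.2% of proliferating cells and 85.0% of all cells. Of the 46 proliferating cells under the limit, 42 (91.3%) had at least 1 of these genes, against 82.3% of the 1966 cells under the limit with no selection gene, so a single one of these genes does not mark a myeloid cell in this table. C1qa, a complement component made by microglia, was above 0 in 95.9% of proliferating cells. Ctss, a lysosomal protease, was above 0 in 95.6% and Tyrobp, a signalling adaptor, in 87.8%. By these genes the proliferating cells were myeloid about as often as the cells of the table overall.

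Of the proliferating cells 15.5% were under the myeloid limit, and most of these were not assigned to a cell type. Among these 46 cells, 4 had at least 3 of 18 T and NK cell markers, with Cd3g, a chain of the T cell receptor complex, above 0 in 4 cells and Cd3e in 2. Of the oligodendrocyte precursor markers, Pdgfra, Neu4, Bcan and C1ql1 were at 0 in all 296 proliferating cells, and so were Col1a1, Col1a2, Col3a1 and Lum of fibroblasts and Cd163, Cbr2 and Folr2 of border macrophages. For each of these genes 0 of 296 cells allows a share of up to 1.01% of cells with a value above 0, which sets no limit on the cells that express it. For background, cells under the myeloid limit with at least 6 of 12 endothelial markers, at least 5 of 10 ependymal markers or at least 7 of 14 oligodendrocyte markers, were counted, a choice made after the values were seen. At least 1 selection gene was above 0 in 8 of 196 endothelial-marked cells (4.08%), 10 of 103 ependymal-marked cells (9.71%) and 5 of 302 oligodendrocyte-marked cells (1.66%), against 9.22% of the 11481 cells that reached the myeloid limit. At least 2 were above 0 in 1 of the 196 endothelial-marked cells (0.510%), 0 of the 103 ependymal-marked cells, which allows a share of up to 2.91%, and 0 of the 302 oligodendrocyte-marked cells, which allows a share of up to 0.993%, against 2.18% of the cells that reached the limit. Median gene numbers were 713.5 in the endothelial-marked cells, 790 in the ependymal-marked cells, 418 in the oligodendrocyte-marked cells and 560 in the cells that reached the limit. Within set B this background was higher. There at least 1 selection gene was above 0 in 6 of 29 endothelial-marked cells (20.7%, interval 7.99 to 39.7%), 3 of 16 ependymal-marked cells (18.8%) and 4 of 72 oligodendrocyte-marked cells (5.56%), against 781 of the 3394 cells that reached the limit (23.01%), so a single selection gene in set B did not set myeloid cells apart from endothelial-marked or ependymal-marked ones. At least 2 were above 0 in 1 of the 29 endothelial-marked cells (3.45%, interval 0.0873 to 17.8%), 0 of the 16 ependymal-marked cells and 0 of the 72 oligodendrocyte-marked cells, which allows a share of up to 4.17%, against 6.28% of the cells that reached the limit and 6.66% of all cells under it. The part of free RNA in the share of proliferating cells in set B was not tested.

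Proliferating cells had more genes above 0 than comparison cells, with medians of 654.5 and 551, and higher totals of the deposited values, with medians of 1102.5 and 976. Within set B the median gene numbers were 656 and 538. The mitochondrial share was lower, with medians of 4.24% in proliferating cells and 5.86% in comparison cells, and the ribosomal protein share higher, at 14.4% and 12.3%. Ratios of means between the groups were centred above 1: the median ratio over genes above 0 in at least 10% of proliferating cells was 1.45, and 1.31 after scaling each cell to a total of 10000. Over all genes above 0 in both groups the median ratio was 1.22. The parts of the totals and of the 10% filter, which keeps genes found in proliferating cells, were not tested.

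Of the 1519 genes above 0 in at least 10% of proliferating cells, 299 (percent called 19.7) had a mean at least 2-fold higher in proliferating cells than in comparison cells. Of the 1077 genes above 0 in at least 10% of comparison cells, 33 (percent called 3.06) had a mean at least 2-fold lower. The selection genes and the 3 myeloid genes were left out of both counts. Within set B the counts were 228 of 1516 genes (15) and 12 of 1068 genes (1.12). Without set B 542 genes were higher and 82 lower, and without set A 20 were lower. Of the 299 genes, 187 were also at least 2-fold higher within set B and 298 had a ratio of at least 1 there, while 5 of the 33 lower genes were lower by 2-fold there too. Lists of cell cycle genes held 217 measured genes, of which 61 passed the filter and 58 were among those at least 2-fold higher, and within set B these were 53 of 59. Without the filter 188 of 215 genes were at least 2-fold higher, where 20.1% of all 12726 genes were. The choice of cells used this contrast, so nothing is read from these shares.

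Of the 25 genes with the highest ratio, 23 were in a cell cycle list, and all 25 were at least 8.44-fold higher in proliferating cells within set B. Histone genes were among them. Hist1h1b, a linker histone, was above 0 in 21.6% of proliferating cells (interval 17.1 to 26.8%) and 0.384% of comparison cells, with means of 0.358 and 0.00393 and a ratio of 91.0, or 30.6 within set B. Hist1h2ap and Hist1h2ae, both histone H2A genes, were above 0 in 28.0% and 27.7% of proliferating cells, against 0.547% and 0.576% of comparison cells, with ratios of 67.2 and 67.1. H2afx, the H2A variant that is marked at DNA breaks, had a ratio of 20.4 and Hist1h1e 13.6. Genes of the Hist clusters are close copies of each other and most of their transcripts carry no poly(A) tail, so reads may have been split between copies and their levels are not compared with those of other genes.

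Mitotic cyclins and kinases were also among the 25 genes. Ccnb1, the cyclin B that activates Cdk1, was above 0 in 16.2% of proliferating cells and 0.201% of comparison cells, a ratio of 88.9, or 23.8 within set B. Ccnb2 had a ratio of 47.3 and Aurkb, the kinase of the chromosomal passenger complex, 37.5. Pbk, a mitotic kinase, had 64.6 and Cks1b, a small subunit of cyclin-dependent kinases, 15.8. Of the 19 genes of this list 6 passed the filter, and all 6 were at least 2-fold higher, in all cells and within set B. Of all genes tested, 19.7% and 15% were. Without the filter all 19 were at least 2-fold higher, against 20.1% of all genes above 0 in both groups. The choice of cells favours such genes, so nothing is read from these counts. Plk1, which drives mitotic entry, was above 0 in 7.43% of proliferating cells and thus under the filter, against 0.115% of comparison cells.

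Kinetochore and spindle genes stood among them too, Nusap1 and Prc1 with ratios of 81.9 and 76.5, above those of the listed kinases and of all but 1 of the histone genes. Spc25 and Spc24, subunits of the NDC80 complex that binds microtubules, had ratios of 63.1 and 36.3, Cenpe, a kinetochore motor, 47.6, and Cenpa, the histone of centromeres, 19.2. Cdca8, or borealin, had a ratio of 47.2 and was above 0 in 17.9% of proliferating cells and 0.422% of comparison cells. Nusap1, which bundles spindle microtubules, was above 0 in 25% of proliferating cells, 1.61% of cells with exactly 1 selection gene and 0.422% of comparison cells. Prc1, which crosslinks the central spindle, was above 0 in 25%, 2.69% and 0.480% of these cells. Kif11, the motor that separates spindle poles, had a ratio of 59.1, Ckap2l 54.9 and Racgap1, which works in the contractile ring, 26.2. The cells with exactly 1 selection gene stood between the other groups for all 25 genes.

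**Figure D3:**
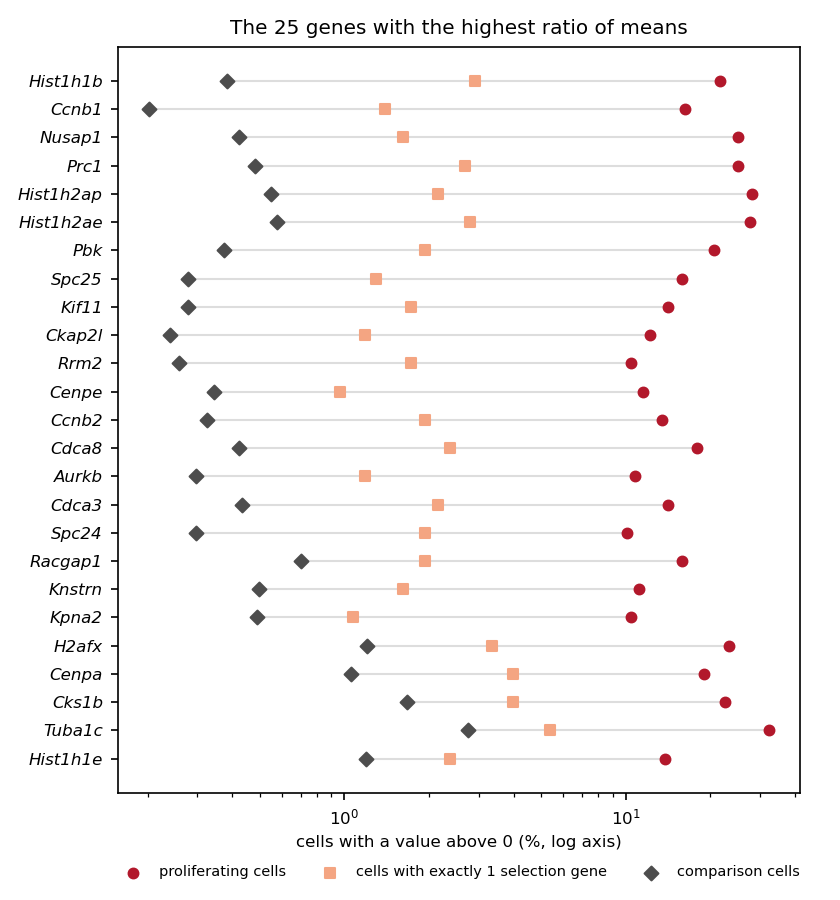
Share of cells with a value above 0 (x axis, log scale) for the 25 genes with the highest ratio of means, from highest to lowest (y axis), in proliferating cells, cells with exactly 1 selection gene and comparison cells. Proliferating cells lie between 10.1% (Spc24) and 32.4% (Tuba1c), comparison cells between 0.201% (Ccnb1) and 2.75% (Tuba1c).

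The remaining genes of highest ratio were Rrm2 (48.3), the small subunit of ribonucleotide reductase, Cdca3 (36.7), Knstrn (23.7), Kpna2 (23.02), an importin that carries proteins into the nucleus, and Tuba1c (14.3), an alpha-tubulin. Outside set B all 25 had a higher mean in proliferating cells than in comparison cells, but only 13 were higher in all 6 sets, and with 6 to 16 proliferating cells in each of the sets other than B a mean of 0 is common for such sparse genes.

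More abundant genes gave values in every set. H2afz, the histone variant H2A.Z, averaged 1.63, 2.07, 1.71, 3.33, 4 and 3.63 in proliferating cells of sets A to F, against 0.476, 0.609, 0.317, 0.341, 0.307 and 0.442 in comparison cells. The groups did not overlap, as the lowest mean of proliferating cells lay above the highest mean of comparison cells. Tuba1b, an alpha-tubulin, averaged 1.13, 1.96, 1.43, 2.50, 2.17 and 3.38 in proliferating cells of the same sets, against 0.161, 0.359, 0.138, 0.312, 0.271 and 0.323 in comparison cells, and did not overlap either. The share of all genes without overlap was not counted, and the choice of cells favours such genes. Nothing is therefore read from the lack of overlap. Hmgb2, a chromatin protein of the high-mobility group, averaged 1.13, 0.945, 0.571, 1.5, 3.33 and 1.5 in proliferating cells, against 0.0670, 0.130, 0.0339, 0.0592, 0.0529 and 0.0691 in comparison cells. Over all sets the ratios were 4.66 for H2afz, 8.10 for Tuba1b and 13.3 for Hmgb2. Tubb5, a beta-tubulin, had a ratio of 6.64 and Stmn1, which takes microtubules apart, 5.01, and both were higher in proliferating cells in 6 of 6 sets. The share of all genes that were so was not counted. Alpha-tubulin genes share much of their coding sequence, so the split between Tuba1b and Tuba1c is uncertain.

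**Figure D4:**
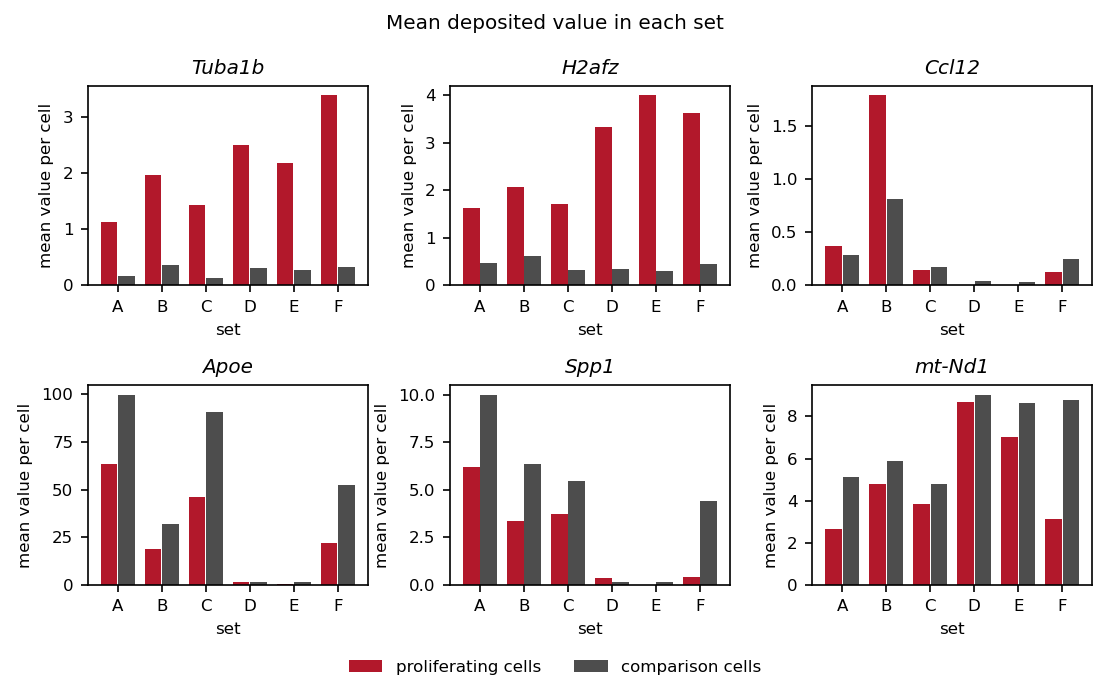
Mean deposited value per cell (y axes, linear, from 0) of 6 genes in proliferating cells (left bar) and comparison cells (right bar) of sets A to F (x axes), with 16, 253, 7, 6, 6 and 8 proliferating cells. Tuba1b and H2afz are higher in proliferating cells in all 6 sets, Ccl12 in 2 of 6, and Apoe and mt-Nd1 in 0 of 6.

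Genes of chromatin and chromosome structure had mostly higher means. Of 27 genes in the list of histones and chromatin assembly 13 passed the filter. Of 19 in the list of condensin, cohesin and high-mobility group proteins 9 did. All of these were at least 2-fold higher, against 19.7% of all genes tested. The filter keeps genes found in proliferating cells and the choice of cells favours related genes, so nothing is read from these counts. Median ratios over all measured genes of the lists were 8.07 and 8.21, against 1.22 over all genes above 0 in both groups. Within set B they were lower, at 4.07 and 5.44, against 1.29. Smc2 and Smc4, the core of condensin, had ratios of 13.4 and 8.21, Ezh2, the methyltransferase of the Polycomb complex, 12.9, and Lmnb1, a lamin of the nuclear envelope, 9.12. The summed list of spindle, motors and cytokinesis averaged 8.30 in proliferating cells and 0.979 in comparison cells, or 7.99 and 1.26 within set B. All 11 cell cycle lists had a higher sum in proliferating cells in 6 of 6 sets.

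Replication genes had smaller median ratios than mitotic cyclins, kinases and kinetochore genes. Genes of the anaphase-promoting complex and mitotic exit had a median ratio of 3.79, or 3.25 within set B, and lay among the lists of replication and nucleotide supply. Most selection genes work in mitosis, so the choice of cells favours mitotic over replication genes, and nothing is read from this order. The 19 genes of replication licensing and the helicase had a median ratio of 4.43, or 3.18 within set B, and 0 of them passed the filter. The 25 genes of replication polymerases and the fork had 4.14, or 3.44. Mcm5, a helicase subunit, was above 0 in 5.74% of proliferating cells and 0.604% of comparison cells, and Mcm3 in 4.73% and 2.11%. Pcna, the sliding clamp, was above 0 in 17.6% and 7.39%, a ratio of 2.92. The 13 genes of nucleotide supply had a median ratio of 3.13, or 3.34 within set B. Among them, Rrm1, the large subunit of ribonucleotide reductase, had a ratio of 11.5 and Tyms, thymidylate synthase, 11.1. The list of mitotic cyclins and kinases had a median ratio of 34.0, or 10.8 within set B, and that of the centromere and kinetochore 22.01, or 10.1.

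Of the 18 cyclins, kinases and E2F factors of G1 and S phase 17 had a ratio above 1, with a median of 3.195, or 2.77 within set B, where 15 were above 1. Over all genes above 0 in both groups the median ratio was 1.22, or 1.29 within set B. Most genes were therefore above 1, and nothing is read from the counts above 1. Without the filter 13 of the 18 were at least 2-fold higher, against 20.1% of all genes above 0 in both groups. Ccne2, cyclin E2, was above 0 in 3.72% of proliferating cells and 0.163% of comparison cells, a ratio of 24.9, or 6.89 within set B. Ccnd1, cyclin D1, had means of 0.145 in proliferating cells and 0.0716 in comparison cells, a ratio of 2.03, but 1.54 within set B. Ccnd3, cyclin D3, had means of 0.0946 and 0.126, a ratio of 0.750, or 1.09 without set A. Of the 12 inhibitors of cyclin-dependent kinases and quiescence genes 7 had a ratio above 1, with a median of 1.09, or 1.29 within set B. Cdkn2c, an inhibitor of the INK4 group, was above 0 in 14.2% of proliferating cells and 1.18% of comparison cells, a ratio of 13.2, or 9.72 within set B, and it was higher in 6 of 6 sets. Cdkn2a, the locus of p16 and p19ARF, was above 0 in 6.76% and 0.413% of these cells, and Cdkn2d in 9.80% and 1.66%, with ratios of 15.3 and 6.30. Cdkn1b, the inhibitor p27 of resting cells, was above 0 in 2.70% of proliferating cells and 3.38% of comparison cells, a ratio of 0.873, or 1.32 without set B.

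Fewer genes were lower, and the 12 with the lowest ratio included genes of disease-associated microglia. Apoe, an apolipoprotein that microglia make in disease, averaged 63.4, 18.6, 46.1, 1.5, 0.333 and 21.9 in proliferating cells of sets A to F, against 99.9, 31.7, 90.7, 1.61, 1.15 and 52.5 in comparison cells. The mean was lower in proliferating cells in 6 of 6 sets, with a ratio of 0.348 over all cells and 0.587 within set B. Gpnmb, a membrane glycoprotein of lipid-laden macrophages, had a ratio of 0.294, or 0.332 within set B, where it was above 0 in 11.5% of proliferating cells and 26.7% of comparison cells. Spp1, or osteopontin, averaged 3.31 in proliferating cells and 6.38 in comparison cells, a ratio of 0.519, or 0.526 within set B. Lyz2, lysozyme, had a ratio of 0.538, or 0.503 within set B. For these 4 genes the direction within set B was the same as over all cells.

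Other genes among the 12 lowest had ratios nearer to 1 within set B. Cst3, a cystatin of homeostatic microglia, had a ratio of 0.525 over all cells but 1.03 within set B. Gpr34, a receptor of homeostatic microglia, had 0.376 and 0.771, and Tgfbr1, a receptor for TGF-beta, 0.480 and 0.682. Gm47283 had 0.442 and 0.753, and 1.06 without set A. Ptgds, which oligodendrocytes and meningeal cells make, was above 0 in 14.9% of proliferating cells and 40.4% of comparison cells (ratio 0.294, or 0.605 within set B), and Apod in 18.9% and 40.9% (0.403, or 0.501). The sum of the 14 oligodendrocyte markers averaged 8.48 in proliferating cells and 15.4 in comparison cells, and was lower in proliferating cells in 6 of 6 sets. The part of free myelin RNA or of attached myelin in these values was not tested.

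Lists of myeloid states depended on set B. The 16 genes of homeostatic microglia had a median ratio of 0.827 over all cells, with 2 above 1, but 1.20 within set B, with 14 above 1. Olfml3 and Tmem119, markers of resident microglia, were the 2 above 1 over all cells, with ratios of 1.82 and 1.32, or 1.77 and 1.47 within set B. P2ry12, the purinergic receptor of surveying microglia, had a ratio of 0.564, or 1.13 within set B. The list of infiltrating monocytes and macrophages turned the other way, with a median ratio of 1.31 over all cells and 0.638 within set B, where 2 of 17 genes were above 1. Arg1, arginase, was above 0 in 11.1% of the proliferating cells and 28.1% of the comparison cells of set B, and AA467197 in 25.3% and 33.4%. S100a6, a calcium-binding protein, had a ratio of 0.419 there. Within set B the monocyte list therefore lay below 1 and the homeostatic list above it, while the median ratio there of all genes above 0 in both groups was 1.29.

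Disease-associated genes other than those above were also lower. Of 16 genes in that list, 0 had a ratio above 1 over all cells and 1 had within set B, with medians of 0.732 and 0.785. The medians of all genes above 0 in both groups were 1.22 and 1.29. Trem2, the lipid receptor of microglia, had a ratio of 0.627, or 0.898 within set B, and Cd63, a lysosomal tetraspanin, 0.795, or 0.788. Fabp5, a fatty acid binding protein, and Lgals3, a galectin, had 0.945 and 0.907 over all cells, but 0.576 and 0.624 within set B, and Fabp5 had 1.30 without set B.

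Interferon and chemokine genes had mostly higher means over all cells, but within set B the chemokines did not. Of 12 interferon response genes that passed the filter 10 were at least 2-fold higher over all cells, and 3 of 14 within set B, where 19.7% and 15% of all genes tested were, so the count within set B was near that of all genes. The 21 chemokines and cytokines had a median ratio of 1.67 with 15 above 1, but 0.906 with 9 above 1 within set B. All genes above 0 in both groups had medians of 1.22 and 1.29, so most of them were above 1 too. Of the chemokines and cytokines 4 of 8 that passed the filter were at least 2-fold higher over all cells and 1 of 8 within set B. Ifi27l2a, an interferon-induced gene, averaged 1.51 in proliferating cells and 0.312 in comparison cells (ratio 4.85), and 1.61 and 0.706 in set B (2.28). Isg15, a ubiquitin-like protein, had a ratio of 3.18, or 1.61 within set B. Ccl12, a chemokine for monocytes, averaged 0.375, 1.79, 0.143, 0, 0 and 0.125 in proliferating cells of sets A to F, against 0.285, 0.818, 0.172, 0.0391, 0.0315 and 0.248 in comparison cells, so that its ratio of 4.37 rested on set B: it was 2.19 within set B and 0.923 without it. Ccl2 had a ratio of 4.03, or 1.47 within set B. Of the MHC class II genes, H2-Aa, which presents peptides to T cells, was lower, with a ratio of 0.620, or 0.554 within set B, and 0.902 was the median of the list.

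**Figure D5:**
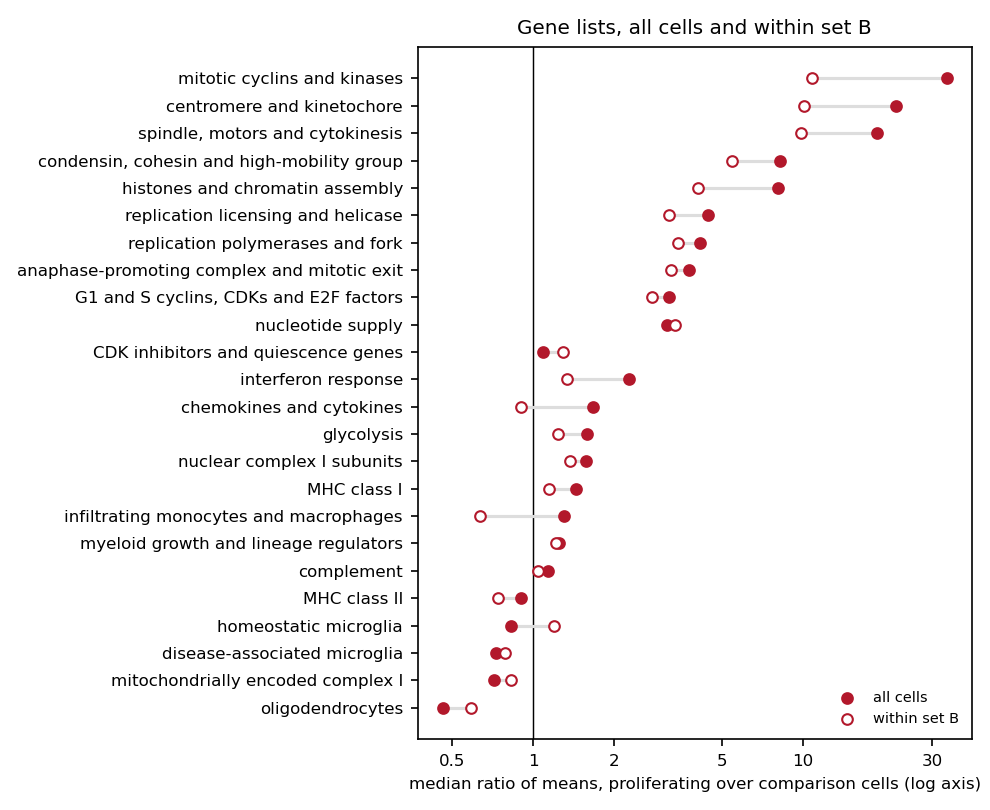
Median ratio of means, proliferating over comparison cells (x axis, log scale, vertical line at 1), for the 11 cell cycle lists and for other lists with at least 4 genes past the filter (y axis), over all cells (filled points) and within set B (open points). The cell cycle lists lie above 1 at both points, the homeostatic list stands at 0.827 over all cells and 1.20 within set B, and the list of infiltrating monocytes at 1.31 and 0.638.

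The 15 growth and lineage regulators of myeloid cells had a median ratio of 1.25, or 1.21 within set B, close to the medians of 1.22 and 1.29 of all genes above 0 in both groups. Cebpb, a factor of inflammatory macrophages, had a ratio of 2.53, or 1.47 within set B, and was higher in proliferating cells in 6 of 6 sets. How many of all genes were higher in 6 of 6 sets was not counted, so nothing is read from it. Spi1, the lineage factor PU.1, had 1.51 and 1.33, Irf8, which microglia need, 1.53 and 1.49, and Csf1r, the receptor for the growth factor of microglia, 0.879 and 1.29, with 1.05 without set D and 1.01 without set E.

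Genes of complex I split by the genome that encodes them. The sum of the 7 mitochondrially encoded subunits averaged 14.7 in proliferating cells and 20.2 in comparison cells, and was lower in proliferating cells in 6 of 6 sets, with a median ratio of 0.717, or 0.829 within set B. mt-Nd1 had a ratio of 0.764 and mt-Nd4 0.748. The share of all mitochondrially encoded genes was lower too, with medians of 4.24% in proliferating cells and 5.86% in comparison cells. A difference particular to complex I is therefore not shown. mt-Nd6, the gene mutated in Nd6 mice, was above 0 in 8.45% of proliferating cells and 14.1% of comparison cells, but in 8.30% and 7.16% of those of set B. The 36 nuclear subunits had a median ratio of 1.57, or 1.37 within set B, and their sum of 7.37 in proliferating cells and 4.90 in comparison cells was higher in proliferating cells in 6 of 6 sets. Of the 36 genes 31 passed the filter, and the median ratio of all genes that did was 1.45, or 1.43 within set B, so the nuclear list lay near the centre of genes of such levels.

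Of the glycolysis genes 3 of 10 that passed the filter were at least 2-fold higher over all cells and 1 of 11 within set B, against 19.7% and 15% of all genes tested. Eno1, an enolase, had a ratio of 2.49, or 2.06 within set B. It was higher in proliferating cells in 6 of 6 sets, and the share of all genes that were so was not counted. Gapdh and Tpi1, enzymes of the same pathway, had ratios of 2.02 and 2.03, or 1.52 and 1.37 within set B.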

How the data were processed

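Single cells from 6 libraries were measured. Per the labels and the methods of the study, the authors aligned reads to GRCm38 with Cell Ranger 7.1.0 (intronic reads included), merged libraries in Seurat 4.3.0.1 and filtered cells. The authors deposited 1 table of 13614 cells and 18792 genes, and its values were treated as a score, since every value is whole, each cell sums to between 687 and 1578, and how they were made from UMI counts is not given in the sources used here. Sequencing depth is therefore unknown.

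Cells carry no library name, so the table counted as 1 pooled sample, with no test and no p-value. Sets A to F are the cells that share the ending of their names. Groups were compared by the ratio of mean values (Python 3.11.15, NumPy 2.4.6, pandas 2.3.3), and shares have exact binomial 95% intervals (SciPy 1.17.1). The ratio was checked on simulated data in which only more abundant genes were changed, so the check does not cover the sparse genes of highest ratio. The text names the selection genes, the 25 highest ratios (above 0 in at least 10% of proliferating cells), the 12 lowest (above 0 in at least 25% of comparison cells) and members of 37 gene lists. Members and lists were chosen with earlier results of these data known. Some genes that the rule names are not reported here. Beyond the rule, further list members were named after their values were seen. Doublets were kept: Scrublet (Scanpy 1.11.5) called 74 cells (0.544%), 0 of them proliferating, and 0.125% of set B, too few to count as a working caller there. Alternatives were other limits on selection genes and filters, scaling to 10000, matched gene numbers, equal weight of sets, the stated limits on cells and leaving out each set. The restriction to set B was added after seeing the data.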

Additional observations from a re-analysis of the deposited data

How the results depend on the processing

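The share of proliferating cells was 1.22% with at least 3 selection genes, 8.998% with at least 1, 3.12% without set A and 0.447% without set B, against 2.17%. Genes at least 2-fold higher numbered 605 with at least 3 selection genes, 605 with a 5% filter, 2562 with no filter, 504 with sets weighted equally and 542 without set B, against 299. Genes at least 2-fold lower numbered 69, 112, 1121, 66 and 82 under these settings, 104 between the quartiles of gene number (525.5 to 826), 20 without set A and 12 within set B, against 33. Cell cycle list genes at least 2-fold higher numbered 124 with a 5% filter and 188 with no filter, against 58. A wider filter admits more genes by construction, and for the other settings the cause was not tested. The share that reached the myeloid sum stayed within its interval under all alternatives run.

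Of the 100 named genes followed through 16 settings, 18 changed side of 1 under at least 1 of them. Of these 13 were within the 2-fold limit over all cells; 9 of the 13 crossed within set B, 5 without set B and 6 with sets weighted equally. The other 5 had been past that limit. F10 came to 0.610 with sets weighted equally, 0 without set B and 0.673 within set B. Bst2 came to 0.988 with equal weights and 0.687 without set B, Ccl12 to 0.923 and Cxcl13 to 0 without set B, and Gm47283 to 1.06 without set A. Without Scrublet calls no named ratio moved by over 1.5 times. No paired analysis was possible because nothing links a cell to a library or to its replicate number.

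Limits: proliferating cells outside set B number 43, so ratios there rest on few cells. Sets are not known to be libraries, free RNA was not removed, and sparse genes are often at 0 in cells that may use them. Intervals cover counting error only.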

Other observations

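Further gene lists were described in the same way. The 11 genes of MHC class I had a median ratio of 1.44, or 1.14 within set B, and Psmb9, a subunit of the immunoproteasome, had a ratio of 2.49, or 1.80. The 10 complement genes had a median of 1.14, or 1.04 within set B, and C4b had 1.84 and 1.05. S100a8 and S100a9, markers of neutrophils, were above 0 in 9.12% and 5.74% of proliferating cells, against 11.8% and 13.3% of comparison cells. Igkc, an immunoglobulin light chain, was above 0 in 4.05% of proliferating cells and 12.8% of comparison cells, but in 1.58% and 1.03% of those of set B, and its source was not tested.

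The cells richest in selection genes had low sums of the lists of disease-associated microglia and of mitochondrially encoded complex I. The disease-associated list summed to 26.8 in cells with 5 or more selection genes and 49.6 in cells with exactly 2, against 86.8 in comparison cells. Within set B, which held most of the proliferating cells, it summed to 37.2 in proliferating cells and 57.4 in comparison cells. The complex I list summed to 9.23 and 17.5, against 20.2, and within set B to 14.7 in proliferating cells and 18.9 in comparison cells. As totals per cell lie close together in this table, a sum of some genes cannot be told apart from the room that other genes take.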
